A study of Mus musculus with 22 samples.

Results

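Lung RNA of mice that had inhaled benzene was compared with lung RNA of mice that had breathed filtered air, after 1 outlying air library had been left out. The comparison used 11 of the 22 libraries of the study, which also holds liver. They were benzene replicates 1 to 6 against air replicates 1, 2, 3, 4 and 6. Air replicate 5 was left out because many genes had no read in it, and the results are also given with it. The genes were selected on the same CPM values that are compared, by a minimum level only, and the libraries were chosen by that count of genes without a read. Of 15971 genes in the deposited lung table, 15754 had a value of at least 1 CPM in 5 or more of the 11 libraries and were tested. All mice were male C57BL/6J, 14 weeks old and fed normal chow. The benzene mice inhaled 50 ppm for 6 hours a day on 5 days per week over 6 weeks, and the air mice breathed air cleaned by carbon and HEPA filters. The labels number the lungs without tying each to its own mouse, so the p-values measure only the spread between these samples, which may be technical.

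Benzene is a solvent that is itself little reactive. Cytochrome P450 enzymes, chiefly Cyp2e1 and in mouse lung also Cyp2f2 of the club cells, oxidise it to an epoxide, to phenols and to a ring-opened dialdehyde. Epoxide hydrolases, dehydrogenases, glutathione transferases and quinone reductase then handle these products, and inhaled benzene is best known for damage to blood-forming cells. Whole lung holds airway and alveolar epithelium, endothelium, smooth muscle, matrix cells, macrophages and lymphocytes. In the mouse it also carries heart muscle around the pulmonary veins. Stratified squamous epithelium lines the oesophagus and parts of the upper airway and is not the normal lining of distal lung.

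The values are normalized counts headed CPM, and they came back as whole reads when divided by 1 factor per library. Recovered reads, in units of 1e+06, numbered 8.40 to 10.02 in benzene lungs, 8.30 to 11.92 in the 5 air lungs and 8.84 in air replicate 5. Genes without a read numbered 13 to 28 in benzene lungs and 17 to 61 in the 5 air lungs, against 894 in air replicate 5. That library lay outside the range of the other 5 air lungs by at least 2-fold at 2714 of the 15754 genes, above it at 1071 and below it at 1643, whereas each of the other air lungs did so against its fellows at 0 to 6 genes. It differed from the other air lungs with the length of the gene. Among genes of at least 10 CPM on average and with known exon length, the median log2 difference of air replicate 5 from the other air lungs was 0.74 for genes with up to 1000 bases of exon and -0.17 for genes with more than 8000. The ribosomal protein gene Rplp1 had 7742 CPM in air replicate 5, against 722 to 1167 CPM in the other air lungs, and Krt80, a keratin, was listed at 0, against 49.2 to 63.2 CPM.

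**Figure D1:**
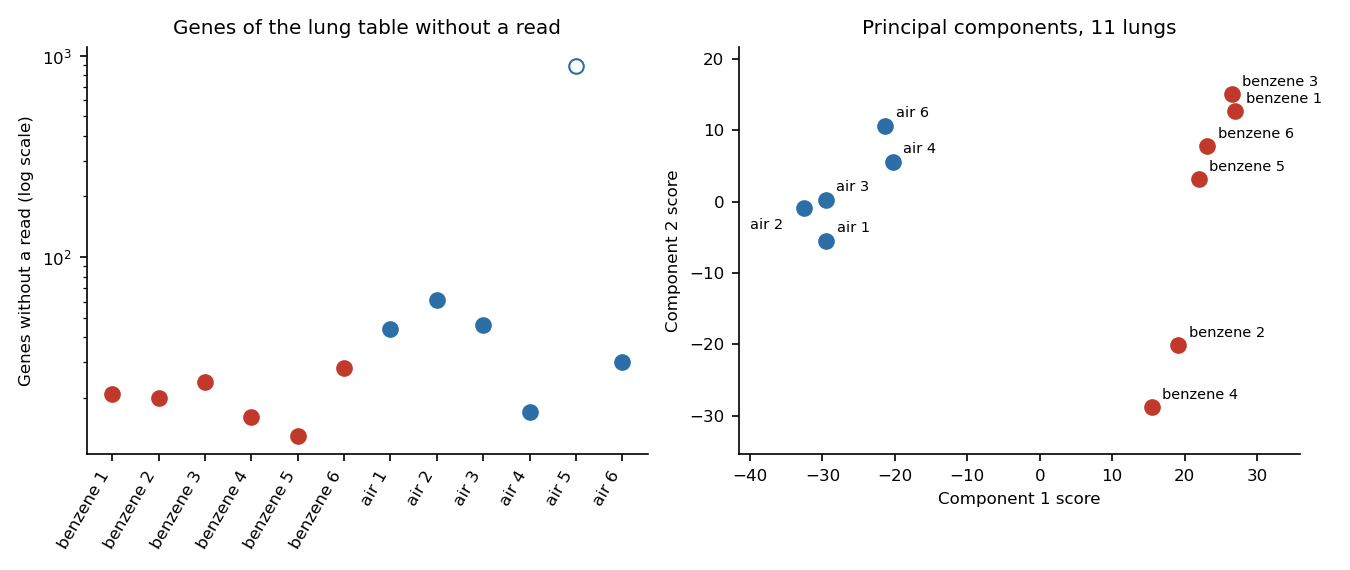
Left, genes of the lung table without a read (log scale) in each of the 12 lung libraries, benzene in red and air in blue, with air replicate 5 as an open point at 894. Right, scores of the 11 libraries on the first and second principal components of log2(CPM + 1), which held 47.6% and 13.2% of the variance, with benzene lungs on the right of the first component and benzene replicates 2 and 4 low on the second.

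Within the 11 libraries no 2 agreed within sampling noise. Over 8275 genes between 20 and 2000 CPM, the squared difference between a pair was 2.16 to 12.6 times that expected from counting alone within the benzene lungs, 3.61 to 10.01 times within the air lungs and 6.31 to 15.8 times between the groups. Pairs of air replicate 5 with another air lung reached 54.6 to 64.6 times. Benzene replicates 2 and 4 stood apart from the other benzene lungs on the second component, at -20.1 and -28.8 against 3.11 to 15.1, and showed the same kind of length gradient. Their median log2 difference from benzene replicates 1, 3, 5 and 6 was 0.40 for genes of up to 1000 exon bases and -0.17 for genes above 8000. Between the groups the gradient ran the other way and was smaller. The median log2 difference of benzene from air was -0.14 for the shortest genes and 0.07 for the longest, and 16.0% of the shortest but 3.32% of the longest passed the test as lower in benzene lungs. Results on short transcripts are therefore given below also after a trend with length had been taken out of each library. Because the lungs were sequenced in bulk, fewer cells of a type and less RNA per cell cannot be told apart in any of the results.

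**Figure D2:**
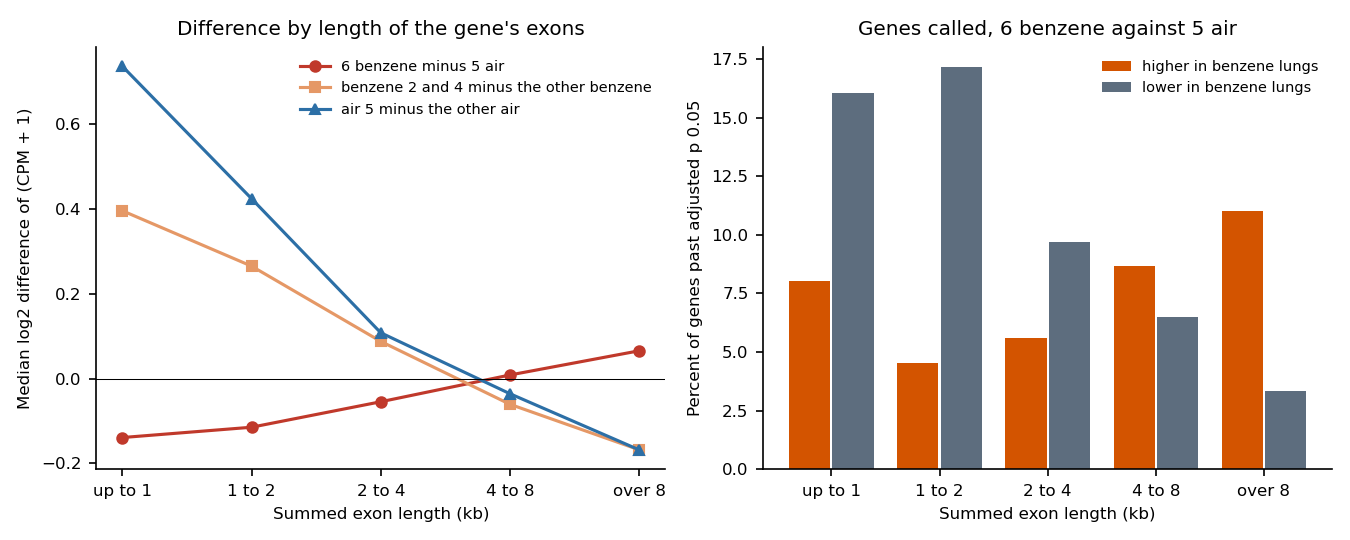
Left, median log2 difference of (CPM + 1) by summed exon length (kb) for the 6 benzene minus the 5 air lungs, for benzene replicates 2 and 4 minus the other benzene lungs and for air replicate 5 minus the other air lungs. Right, percent of genes in each length class past adjusted p 0.05 as higher or lower in benzene lungs. Short genes are low in benzene lungs on the left (-0.14) and high in air replicate 5 (0.74).

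Benzene and air lungs differed at 2321 of 15754 genes, 14.7% of those tested (limma-trend on log2(CPM + 1), Benjamini-Hochberg adjusted p under 0.05). Of these, 1206 were higher in benzene lungs (7.66%) and 1115 were lower (7.08%). Most changes were small, with a median size of 0.43 on the log2 scale. At 216 of the higher genes and 69 of the lower ones the change was at least 2-fold, and at 29 and 3 it was at least 10-fold. Every benzene lung lay above every air lung at 797 genes (5.06%) and below every air lung at 651 (4.13%). With each library scaled to the same total, the calls were 1581 higher and 782 lower, so the balance of directions depends on the scaling, while the median over all genes moved by 0.05. With air replicate 5 included, 897 genes passed (5.69%), 535 higher (3.4%) and 362 lower (2.3%). All 897 were also called without it, and 1424 genes were called only when it was left out. The filter that chose the genes kept 95 with at least 1 CPM in exactly 5 libraries (median of their means 1.08 CPM) and dropped 48 with it in exactly 4 (1.01 CPM). In 79 of the tested genes the filter was passed only through benzene lungs and in 13 only through air lungs. The filter fixed the direction of these genes, though A930007I19Rik and Gm42715 among them did not pass the test.

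**Figure D3:**
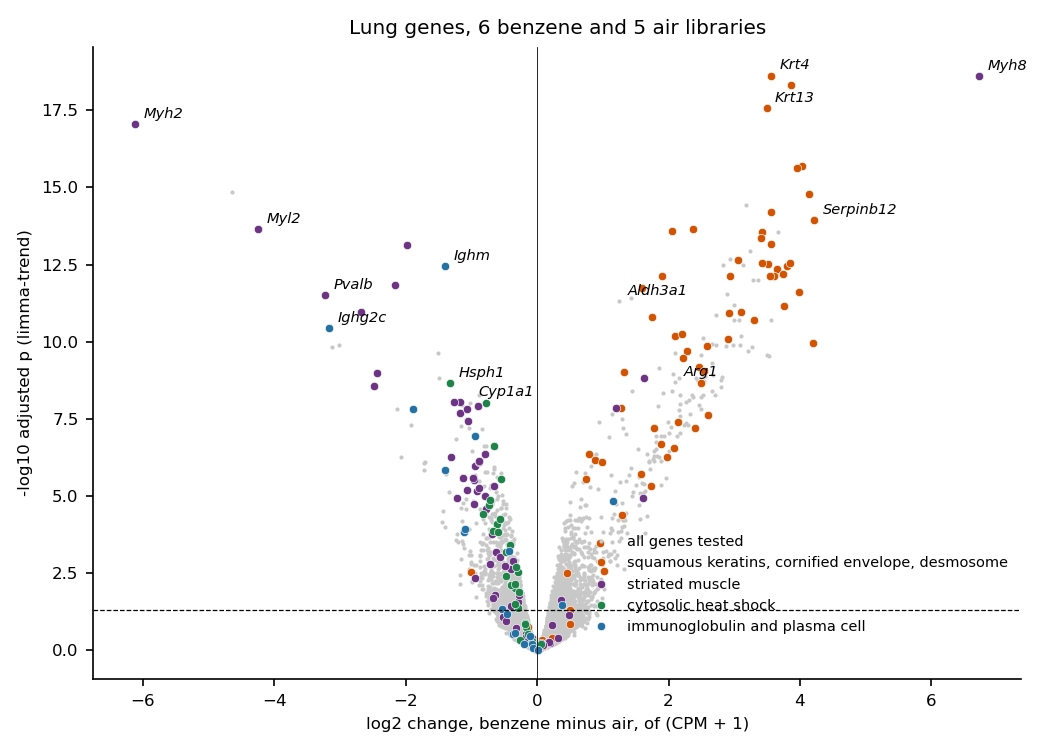
Each point is 1 of 15754 genes, with the log2 change of (CPM + 1), benzene minus air, across and the -log10 adjusted p upward (limma-trend, 6 benzene and 5 air lungs, dashed line at 0.05). Squamous genes (orange) lie on the right, striated muscle genes (purple) mostly on the left with Myh8 at 6.72 on the right, and heat shock (green) and immunoglobulin genes (blue) mostly on the left.

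Genes of stratified squamous epithelium rose in the benzene lungs, and their 3 lists had the highest median changes of the 56 gene lists. Of 48 tested genes of the cornified envelope and squamous differentiation, 45 were higher and 0 lower (median change 2.50, against -0.0015 over all genes). In 44 every benzene lung lay above every air lung, against 5.06% of all genes tested. Some of these 44 passed the filter only through benzene lungs, which largely fixed their separation. Of 9 squamous keratins 6 were higher and 1 lower, and of 13 desmosome genes, whose products rivet epithelial cells together, 10 were higher and 0 lower. These counts were 44, 6 and 10 higher with air replicate 5 included. Among them 6 of the 48, 1 of the 9 (Krt17) and 5 of the 13 passed the filter only through the group where they were high. Of the others 39 of 42, 6 of 8 and 5 of 8 were higher, with median changes of 2.91, 2.48 and 0.62. The squamous keratins summed to 3079 to 3434 CPM in benzene lungs and 346 to 395 CPM in air lungs, with 221 CPM in air replicate 5.

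Krt4 and Krt13 are the paired keratins of the suprabasal layers of squamous epithelium such as that of the oesophagus. The lowest, median and highest benzene lungs had 1319.95, 1371 and 1449.7 CPM of Krt4 (chromosome 15, 101918535 to 101924735 in GRCm38), against 113, 111, 116, 126 and 113 CPM in air lungs 1, 2, 3, 4 and 6 and 64.9 CPM in air replicate 5. The ratio of the means was 11.9 and the log2 change 3.56 ± 0.061 (SE, limma adjusted p = 2.39e-19). For Krt13 (chromosome 11, 100117327 to 100121566) the benzene lungs had 1449, 1574 and 1688 CPM, against 145, 146, 142, 145 and 115 CPM in the air lungs and 89.4 CPM in air replicate 5. All 6 benzene lungs stood far above all air lungs for both genes, and the change of Krt13 was 3.49 ± 0.073 (limma adjusted p = 2.73e-18). The keratins of the basal layer moved in the same direction. Krt5 averaged 80.9 ± 5.58 CPM in benzene lungs and 14.8 ± 1.52 CPM in air lungs (SD, n = 6 and 5, as for all means below), a change of 2.38 ± 0.084, and Krt14 averaged 23.5 ± 3.07 CPM in benzene and 3.198 ± 1.21 CPM in air lungs, a change of 2.58 ± 0.16. Krt78 rose 14.6-fold and Krt15 1.87-fold. Krt17, a keratin of basal and injured epithelium, went against these, at 0.4898 ± 0.355 CPM in benzene and 1.98 ± 0.572 CPM in air lungs (change -1.01 ± 0.22). It reached 1 CPM in no benzene lung, so the filter fixed this direction and the difference is a description, and it was listed at 0 in air replicate 5. The keratins of simple epithelia, which line lung airways and alveoli, were lower: Krt19 averaged 202 ± 16.5 CPM in benzene and 266 ± 23.5 CPM in air lungs (change -0.39 ± 0.074, limma adjusted p = 0.0009804) and Krt8 229 ± 14.4 CPM in benzene and 274 ± 15.6 CPM in air lungs (-0.26 ± 0.065, 0.01004). Krt18, the partner of Krt8, was the other lower gene of the 4 tested (-0.29 ± 0.079, limma adjusted p = 0.0158), a call lost with air replicate 5 (0.0533), with the length trend taken out (0.128) and without air replicate 1 (0.0611). Krt8 missed the threshold with air replicate 5 (0.0516) and with the length trend taken out (0.0523).

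The largest changes of the list were in genes of the outer squamous layers. Serpinb12, a serine protease inhibitor (chromosome 1, 106934449 to 106957080), had 93.9, 103 and 109 CPM in benzene lungs, against 3.29, 6.59, 4.56, 6.302 and 2.88 CPM in air lungs and 2.998 CPM in air replicate 5. The groups did not overlap, and the means differed 21.6-fold (change 4.22 ± 0.14, limma adjusted p = 1.14e-14). Serpinb3a, a neighbouring inhibitor on the same chromosome, rose 22.5-fold, although reads of the close copies of the Serpinb3 group can be shared. Rptn, a cornified envelope protein, averaged 169.9 ± 10.03 CPM in benzene and 9.65 ± 2.17 CPM in air lungs, Sprr3, a small proline-rich envelope protein, 149 ± 8.13 CPM in benzene and 8.76 ± 1.76 CPM in air lungs, and Asprv1, a protease of the granular layer, 215 ± 12.2 CPM in benzene and 13.9 ± 1.16 CPM in air lungs. Lce3a, a late envelope protein, had 34.7, 59.5 and 74.8 CPM in benzene lungs, against 1.46, 1.01, 1.17, 5.22 and 2.99 CPM in air lungs. Its spread between lungs was the widest of these, and the groups still did not overlap (change 4.19 ± 0.25, limma adjusted p = 1.06e-10). Defb4, an antimicrobial peptide of squamous surfaces, rose by 3.85 ± 0.16 on the log2 scale. Other members included the transglutaminase Tgm1 (2.20), which cross-links the envelope, loricrin (Lor, 3.54), the lipoxygenase Alox12b (3.06) and the protease Tmprss11b (1.58), the last of which reached 1 CPM in no air lung and had to differ. Ecm1, Mal and Emp1 were the tested members that did not pass. Mt4, the metallothionein of squamous epithelium, averaged 60.3 ± 19.9 CPM in benzene and 4.11 ± 1.35 CPM in air lungs (change 3.56 ± 0.19, limma adjusted p = 1.94e-11).

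Of the desmosome genes the 10 that passed were all higher, and 5 of the 10 reached 1 CPM in both groups. Pkp1, a plakophilin of the suprabasal desmosome, had 36.4, 41.3 and 50.8 CPM in benzene lungs, against 1.096, 3.13, 3.301, 2.74 and 1.54 CPM in air lungs and 2.699 CPM in air replicate 5. Its groups were far apart (change 3.74 ± 0.16, limma adjusted p = 6.26e-13). Perp, a desmosome protein and p53 target, averaged 146 ± 7.48 CPM in benzene and 47.97 ± 5.29 CPM in air lungs, a 3.05-fold difference. Dsc2, a desmocollin that heart and simple epithelium also use, was higher by 2.10 on the log2 scale, while Dsg2, Pkp2 and Jup, which they use as well, did not pass. Dsc1, Dsg1a and Dsg3, of squamous cells, reached 1 CPM in no air lung, so the filter fixed their direction, and their changes of 3.75, 3.65 and 2.09 are a description. Among 16 transcription factors of epithelial lineages, 8 were higher and 3 lower, or 4 and 1 with air replicate 5 (Trp63, Pax9, Grhl1 and Grhl3, and Elf3), and 6 of the 8 reached 1 CPM in both groups. Grhl3, needed for the epidermal barrier, had 4.25, 6.56 and 9.51 CPM in benzene lungs, against 0.609, 0.782, 0.291, 0.663 and 0.926 CPM in air lungs. No air lung reached 1 CPM, so the filter fixed this direction and the difference is a description (change 2.17 ± 0.18), as is that of Foxe1, a thyroid and foregut factor, with 0.766, 1.37 and 2.13 CPM in benzene lungs and at most 0.412 CPM in air lungs. Pax9, a foregut factor, averaged 6.21 ± 1.63 CPM in benzene and 2.15 ± 0.304 CPM in air lungs, and Ovol1 and Grhl1 rose by 0.90 and 0.76. Elf3 and Foxa2, factors of simple and airway epithelium, were lower (-0.55 and -0.29). Trp63, the master factor of basal cells, was 6.37 ± 1.33 CPM in benzene and 3.96 ± 0.924 CPM in air lungs and overlapped between groups. Its change of 0.57 ± 0.17 (limma adjusted p = 0.0245) missed the threshold without any 1 of benzene replicates 1 (0.0573) and 6 (0.0591) and air replicate 3 (0.0718). Nkx2-1, the lineage factor of lung epithelium, averaged 179 ± 8.38 CPM in benzene and 227 ± 35.1 CPM in air lungs, a change of -0.33 ± 0.084 (limma adjusted p = 0.0115), a call lost with air replicate 5 (0.207). The calls of Ovol1 (limma adjusted p = 0.0504) and Foxa2 (0.0795) were lost with air replicate 5.

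Genes of striated muscle were mostly lower in the benzene lungs, with exchanges between related genes. Of 27 fast-fibre genes 14 were lower and 3 higher (median change -0.52), of 14 slow-fibre genes 12 were lower and 1 higher (-1.03, or 9 and 1 of the 11 that did not pass the filter through air lungs alone), of 24 genes shared by striated muscle 17 were lower and 1 higher (Klhl41, median -0.66), and of 20 genes of atrial and pulmonary vein heart muscle 15 were lower and 0 higher (-0.58). With air replicate 5 included the counts of lower genes were 12, 10, 10 and 9, and the counts of higher genes 3, 1, 0 and 0. The heart muscle list summed to 1371 to 1637 CPM in benzene lungs and 2276 to 3089 CPM in air lungs. The fast-fibre list summed to 1874 to 2215 CPM in benzene lungs, 2563 to 2771 CPM in air lungs and 4608 CPM in air replicate 5. The call of Klhl41 (limma adjusted p = 0.197) was lost with air replicate 5. Klhl41 missed the threshold without any 1 of benzene replicates 5 (0.0555) and 6 (0.0584) and air replicate 6 (0.0665).

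The sharpest exchange lay in the cluster of skeletal myosin heavy chains on chromosome 11. Myh8, the perinatal heavy chain, lies in it downstream of the adult fast chains (chromosome 11, 67277124 to 67308634 in GRCm38) and had 199.9, 215 and 229 CPM in benzene lungs, against 1.22, 1.56, 1.26, 0.415 and 0.926 CPM in air lungs and 0 in air replicate 5. It was nearly absent from every air lung, with 51 reads over the 5 of them and 12405 over the 6 benzene lungs, a ratio of means of 199 (change 6.72 ± 0.12, limma adjusted p = 2.51e-19). Myh2, the heavy chain of fast oxidative fibres, lies upstream in the same cluster and showed the reverse. It had 0.328, 0.598 and 1.33 CPM in benzene lungs, against 108, 133, 120.2, 95.3 and 118 CPM in air lungs and 69.4 CPM in air replicate 5. It lies at chromosome 11, 67171027 to 67197517, and its mean was 167 times as high in air lungs (change -6.11 ± 0.14, limma adjusted p = 8.88e-18). Myh4 and Myh1, of fast glycolytic and mixed fibres, lie between them and were lower without vanishing. Myh4 averaged 16.1 ± 2.73 CPM in benzene and 74.96 ± 4.204 CPM in air lungs (-2.16 ± 0.10), and Myh1 111 ± 12.5 CPM in benzene and 175 ± 12.1 CPM in air lungs (-0.66 ± 0.080). Myh1 was at 97.9 CPM in air replicate 5, within the benzene range.

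Among the light chains and regulators, Myl2, the ventricular and slow light chain, had 0, 0.0469 and 0.306 CPM in benzene lungs, against 19.8, 18.7, 23.6, 19.4 and 16.4 CPM in air lungs and 27.6 CPM in air replicate 5. The groups did not meet (change -4.24 ± 0.15). Myl2, Tnni1 and Vgll2 reached 1 CPM in no benzene lung, so the filter fixed their direction and their values are a description. Myl3, which slow skeletal muscle shares with ventricle, was by contrast higher, at 83.9 ± 13.6 CPM in benzene and 26.6 ± 4.46 CPM in air lungs (change 1.62 ± 0.12, limma adjusted p = 1.48e-09), and air replicate 5 had 78.9 CPM. The slow troponins Tnnt1 and Tnni1 averaged 3.03 ± 0.622 and 0.325 ± 0.195 CPM in benzene lungs, against 24.7 ± 3.39 and 6.098 ± 0.598 CPM in air lungs. Pvalb, the calcium buffer of fast fibres, had 2.96, 4.16 and 7.29 CPM in benzene lungs, against 47.4, 53.97, 51.6, 46.4 and 40.4 CPM in air lungs, and 230.3 CPM in air replicate 5, far above its fellows. Its change was -3.23 ± 0.16 without that library and -3.60 with it, and passed in both. Actn3, the fast-fibre actinin, and Cacng1, a calcium channel subunit of skeletal muscle, were higher by 1.20 ± 0.099 and 1.61 ± 0.21. Ckmt2, the mitochondrial creatine kinase of muscle, averaged 35.2 ± 2.34 CPM in benzene and 142 ± 13.3 CPM in air lungs, and Vgll2, a skeletal muscle cofactor, 0.0169 ± 0.0413 CPM in benzene and 3.48 ± 0.651 CPM in air lungs. Nppa, the atrial peptide, had 64.8, 75.6 and 92.1 CPM in benzene lungs, against 268, 239, 219.996, 177 and 179.9 CPM in air lungs (change -1.50 ± 0.11, limma adjusted p = 1.48e-09), and Myh7 averaged 18.99 ± 2.05 CPM in benzene and 47.1 ± 6.26 CPM in air lungs (-1.26 ± 0.10). Mylpf, Acta1, Eno3 and Csrp3 were among the members that did not pass.

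**Figure D4:**
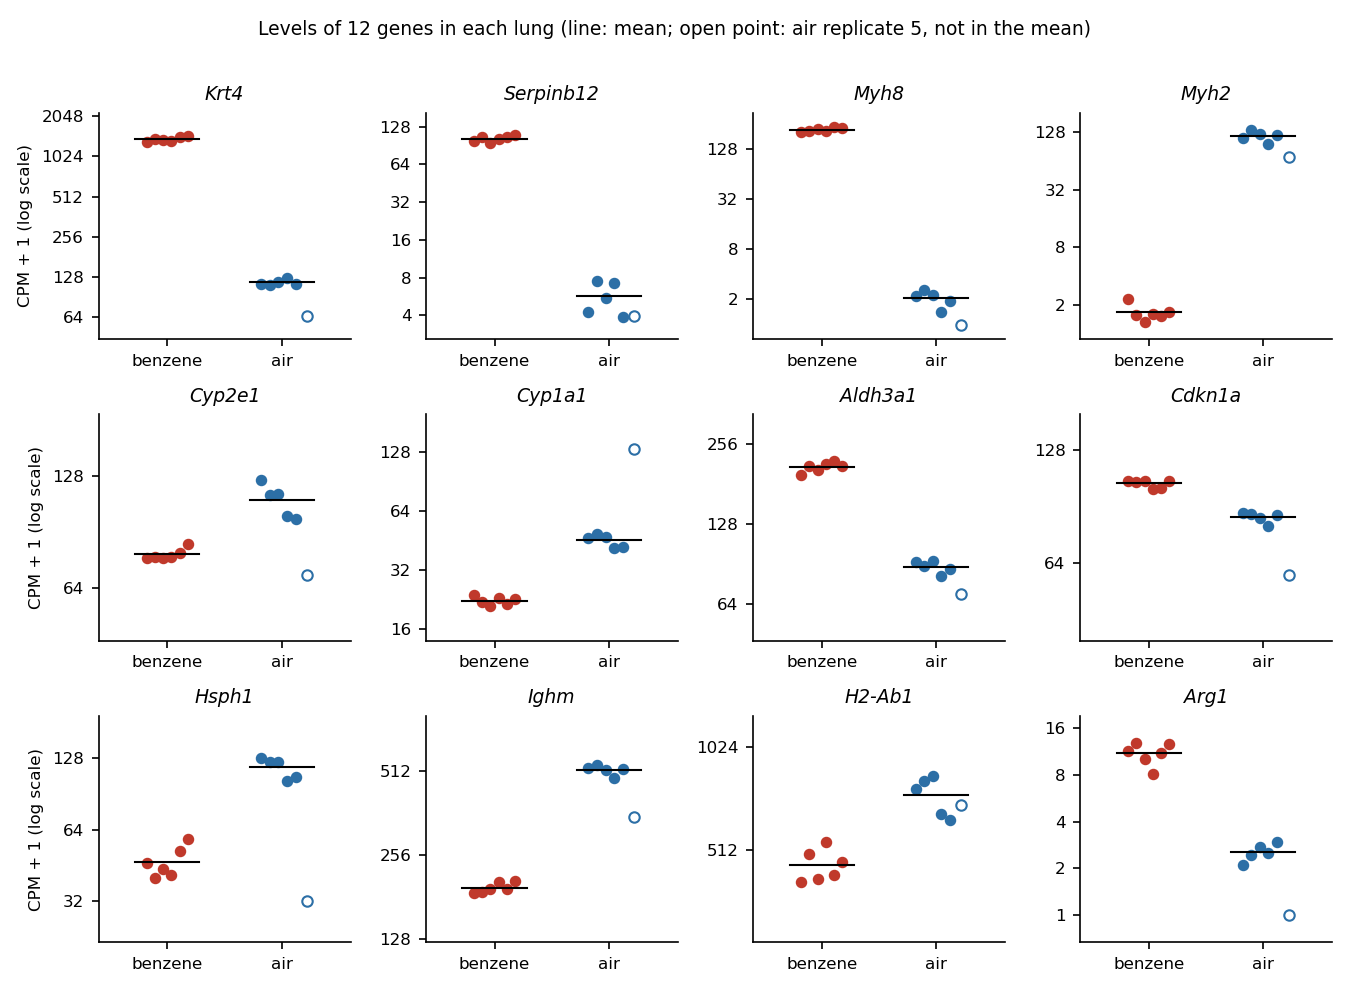
CPM + 1 (log scale) of 12 genes in each lung, benzene (red, left) and air (blue, right), with a line at the group mean and air replicate 5 as an open point outside the mean. The groups are apart for all 12 genes among the 11 libraries, while air replicate 5 lies outside the range of the other air lungs for 10 of them, as for Cyp1a1 (131 CPM) and Hsph1 (31.2 CPM).

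The P450 enzymes examined were lower or did not pass in the fit as reported, and 4 dehydrogenases of aldehydes and diols were higher. Of 15 tested genes of benzene oxidation and epoxide hydrolysis, 1 was higher and 4 lower, or 1 and 1 (Nqo1 and Cyp1a1) with air replicate 5. Cyp2e1, the main benzene oxidase (chromosome 7, 140763739 to 140774987), had 75.97, 76.4 and 82.6 CPM in benzene lungs, against 124, 112, 113, 98.8 and 97.2 CPM in air lungs and 68.2 CPM in air replicate 5. Each benzene lung was below each of the 5 air lungs (change -0.48 ± 0.071, limma adjusted p = 7.44e-05), and air replicate 5 lay below them all, so that the call was lost with it (0.0873). Cyp2f2, the club cell oxidase, had 2273, 2598 and 2788 CPM in benzene lungs, against 2886, 3064, 2890.2, 3310.4 and 3192 CPM in air lungs and 946 CPM in air replicate 5. Its change of -0.28 ± 0.085 (limma adjusted p = 0.0339) was 0.01 with air replicate 5 (0.991) and missed the threshold with the length trend taken out (0.1995) and without any 1 of benzene replicates 1 (0.0536), 2 (0.0675) and 5 (0.0637) and air replicates 2 (0.0666), 4 (0.0718) and 6 (0.06599). Ephx2, the soluble epoxide hydrolase, averaged 13.1 ± 1.78 CPM in benzene and 18.6 ± 3.43 CPM in air lungs (-0.47 ± 0.13, limma adjusted p = 0.0158), and missed it with air replicate 5 (0.441) and without either of air replicates 1 (0.0505) and 3 (0.0525). Nqo1, the quinone reductase, was the member that rose, at 20.4 ± 2.12 CPM in benzene and 14.2 ± 2.31 CPM in air lungs (0.50 ± 0.11, limma adjusted p = 0.00501). Cyp1b1, Cyp2b10, Cyp4b1 and the microsomal hydrolase Ephx1 did not pass, with changes of -0.34, -0.13, 0.13 and 0.10, but Cyp4b1 passed as higher with the length trend taken out (0.21, 0.0333).

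Of 26 aldehyde and dihydrodiol dehydrogenases, 4 were higher and 1 lower, and all 4 stayed called with air replicate 5. Aldh3a1, an aldehyde dehydrogenase of surface epithelia (chromosome 11, 61207537 to 61218421), had 195, 211 and 220.2 CPM in benzene lungs, against 91.4, 87.8, 92.1, 80.2 and 85.4 CPM in air lungs and 68.7 CPM in air replicate 5. Benzene lungs were 2.39 times as high with no overlap (change 1.25 ± 0.062, limma adjusted p = 4.86e-12). Aldh3b2, of the same family, averaged 11.01 ± 1.68 CPM in benzene and 2.18 ± 0.471 CPM in air lungs (1.92 ± 0.15), Adh7, an alcohol and retinol dehydrogenase of upper digestive epithelium, 67.7 ± 4.42 CPM in benzene and 34.7 ± 4.26 CPM in air lungs (0.95 ± 0.083), and Akr1c14, an aldo-keto reductase, 147 ± 9.62 CPM in benzene and 93.6 ± 14.01 CPM in air lungs (0.66 ± 0.089). Aldh3a1, Aldh3b2 and Adh7 are also expressed by squamous epithelium, whose genes rose in the same lungs, and its part in these values was not tested. Aldh1b1 was lower (-0.57 ± 0.14, limma adjusted p = 0.0116, lost with air replicate 5 at 0.118), and Aldh1a1, with 2040.1 ± 122 CPM in benzene and 2356 ± 164 CPM in air lungs, did not pass (0.0887), though it did by limma-voom (0.0358) and DESeq2 (0.0114). Against 7.66% higher and 7.08% lower over all genes tested, 2 of 20 conjugation enzymes were higher (10%) and 1 lower (5%). They were the glucuronyl transferase Ugt1a7c (0.88 ± 0.23, limma adjusted p = 0.0118), whose exons are partly shared with other Ugt1a genes, Gstt2 (0.43 ± 0.11, 0.0131) and Gsto1 (-0.31 ± 0.062, 0.001496). The calls of Gstt2 and Gsto1 were lost with air replicate 5 (0.7104 and 0.794). Gstt1, Gstm1 and Sult1a1 did not pass (changes -0.19, -0.17 and 0.11).

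Targets of the aryl hydrocarbon receptor, a ligand-activated factor that binds the core GCGTG, moved in both directions. Of 10 tested genes of the receptor and its targets, 6 were higher and 1 lower (median change 0.41), or 5 and 1 with air replicate 5. The promoter windows of Cyp1a1, the classical target, and Tiparp, which limits the receptor, are shown because these 2 targets moved oppositely. They run from 250 bases before to 50 after the gene's start (RefSeq, GRCm38.p6), 5′ to 3′ on the gene's strand, and the core on either strand is in capitals.
Cyp1a1, chr9:57697363-57697662, plus strand: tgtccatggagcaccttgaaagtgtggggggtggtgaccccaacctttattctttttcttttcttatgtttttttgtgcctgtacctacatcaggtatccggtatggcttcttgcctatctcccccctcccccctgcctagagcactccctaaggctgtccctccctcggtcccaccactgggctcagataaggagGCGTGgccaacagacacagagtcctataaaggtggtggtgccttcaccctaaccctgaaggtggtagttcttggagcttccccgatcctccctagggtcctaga
Tiparp, chr3:65528197-65528496, plus strand: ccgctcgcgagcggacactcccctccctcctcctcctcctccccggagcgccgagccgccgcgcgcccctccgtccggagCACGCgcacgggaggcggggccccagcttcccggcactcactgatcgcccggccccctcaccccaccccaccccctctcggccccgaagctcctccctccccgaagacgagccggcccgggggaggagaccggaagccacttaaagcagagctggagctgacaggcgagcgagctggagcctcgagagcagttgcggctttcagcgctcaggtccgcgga
Each window holds 1 core. The core stands in 32.4% of 32851 mouse promoter windows. Counted by gene, in any of its windows, it stands in 53.2% of 11375 genes tested here and in 6 of 9 matched members. A match is therefore no more than a description.

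Cyp1a1 had 19.8, 21.3 and 22.7 CPM in benzene lungs, against 45.6, 47.6, 46.2, 40.1 and 40.8 CPM in air lungs and 131 CPM in air replicate 5. It was the lower target, with every benzene lung at about the same level and below every air lung (change -1.02 ± 0.081, limma adjusted p = 9.31e-09), and the same holds with air replicate 5 (-1.28, 0.00377). Tiparp had 34.6, 39.97 and 46.5 CPM in benzene lungs, against 28.5, 31.2, 28.4, 31.6 and 30.8 CPM in air lungs and 19.3 CPM in air replicate 5, so that benzene lungs were all higher (change 0.42 ± 0.090, limma adjusted p = 0.00342). Ahr, the receptor itself, averaged 65.5 ± 5.97 CPM in benzene and 49.1 ± 2.397 CPM in air lungs (0.40 ± 0.075, limma adjusted p = 0.000872), a call lost with air replicate 5 (0.0806). Aldh3a1 and Nqo1, given above, also count here. Lrat, which stores retinol, and Serpinb2, a protease inhibitor also in the squamous list, were higher by 0.51 ± 0.089 and 1.89 ± 0.18, though Serpinb2 reached 1 CPM in no air lung and had to differ. NRF2 is the factor of the antioxidant response. Of its 27 targets tested, 2 were higher (7.41%, against 7.66% over all genes tested) and 0 lower (median change 0.01). They were Nqo1 and the cystine transporter Slc7a11, which averaged 3.37 ± 0.5904 CPM in benzene and 1.81 ± 0.996 CPM in air lungs. The Slc7a11 call (limma adjusted p = 0.02304) was lost with air replicate 5 (0.194) and without any 1 of benzene replicates 1 (0.0531) and 3 (0.05197) and air replicates 2 (0.07402) and 3 (0.0546). Hmox1 and Gclm, haem oxygenase and the glutathione synthesis subunit, did not pass, with 46.6 ± 4.95 and 65.2 ± 2.93 CPM in benzene lungs, against 41.6 ± 3.69 and 58.1 ± 6.72 CPM in air lungs. Hmox1 passed with the length trend taken out (0.26, 0.0256).

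Targets of p53, the DNA damage factor, passed in part, nearly all of them as higher. Of 34 tested, 13 were higher and 1 lower (median change 0.15), or 9 and 1 with air replicate 5. Cdkn1a, the cell cycle inhibitor p21 (chromosome 17, 29090976 to 29100727), had 100.05, 105 and 105 CPM in benzene lungs, against 86.1, 85.4, 83.6, 79.4 and 84.8 CPM in air lungs and 58.8 CPM in air replicate 5. The groups lay apart by a small and even step (change 0.30 ± 0.059, limma adjusted p = 0.001696). Trp53inp1, which promotes p53 activity, averaged 129.95 ± 8.87 CPM in benzene and 91.8 ± 7.22 CPM in air lungs (0.50 ± 0.070), and the stress-response genes Sesn2 and Gdf15 22.2 ± 4.17 and 3.37 ± 1.05 CPM in benzene lungs, against 14.6 ± 1.33 and 1.65 ± 0.335 CPM in air lungs. Sfn, Perp and Trp63, which squamous epithelium also expresses, are 3 of the 13, and the squamous lists rose in the same lungs. The part of squamous cells in this count was not tested. Ccng1, a cyclin, Pmaip1, which promotes cell death, and Sesn1, a stress inhibitor of growth signals, rose by 0.28, 0.40 and 0.43. Eda2r, a death receptor, passed (limma adjusted p = 0.0301) but not with air replicate 5 (0.0786) or without any 1 of benzene replicates 1 (0.0779), 3 (0.0513), 5 (0.05599) and 6 (0.0719) and air replicates 1 (0.0769), 2 (0.0658) and 6 (0.0776). Mdm2, a direct target that degrades p53, was 51.97 ± 4.64 CPM in benzene and 49.1 ± 3.67 CPM in air lungs and did not pass (0.547), nor did Bax, Bbc3, Phlda3 and Zmat3. Ak1, an adenylate kinase abundant in muscle, was the lower member (-0.54). The call of Sesn1 (limma adjusted p = 0.153) was lost with air replicate 5. Trp63 missed the threshold without any 1 of benzene replicates 1 (0.0573) and 6 (0.0591) and air replicate 3 (0.0718).

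Proliferation genes were lower where they changed, and DNA repair genes hardly moved. Of 37 genes of mitosis and replication 6 were lower and 0 higher (median change -0.27), or 2 with air replicate 5 (Mki67 and Ube2c). The proliferation marker Mki67 had 6.02, 6.93 and 9.32 CPM in benzene lungs, against 14.6, 14.6, 11.2, 8.79 and 11.1 CPM in air lungs and 12.3 CPM in air replicate 5. The groups overlapped at air replicate 4 only (change -0.67 ± 0.14, limma adjusted p = 0.00304). Kif23, of the dividing spindle, averaged 3.01 ± 0.748 CPM in benzene and 5.31 ± 0.639 CPM in air lungs (-0.67 ± 0.16, limma adjusted p = 0.00633), and was not called with air replicate 5 (0.353). Birc5 passed narrowly (limma adjusted p = 0.0456) and missed the threshold with air replicate 5 (0.0775), with the length trend taken out (0.0589) and without any 1 of benzene replicates 1 (0.0755), 2 (0.0552), 3 (0.0891) and 5 (0.0932) and air replicates 1 (0.149), 2 (0.138) and 3 (0.0916). Top2a, Cdk1, Pcna and the Mcm genes did not pass. Of 39 DNA repair genes 1 was higher, or 5 without benzene replicates 2 and 4, where 12.2% of all genes were called higher and as many lower. It was Fancd2 of the crosslink repair pathway, with 1.86 ± 0.496 CPM in benzene and 0.925 ± 0.149 CPM in air lungs. Its call (limma adjusted p = 0.0386) was lost with air replicate 5 (0.1097), with the length trend taken out (0.0569) and on leaving out any 1 of benzene replicates 1 (0.0523), 2 (0.0535), 3 (0.0827), 5 (0.0993) and 6 (0.0643) and air replicates 1 (0.0861), 2 (0.0684), 3 (0.0656) and 4 (0.0533).

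Heat shock chaperones, most of them cytosolic, fell together. Of 31 tested heat shock genes 23 were lower and 0 higher (median change -0.40). In 19 every benzene lung lay below every air lung, against 4.13% of all genes tested. With air replicate 5 included 13 were lower. Their summed level was 4367 to 5044 CPM in benzene lungs, 6149 to 7441 CPM in air lungs and 6739 CPM in air replicate 5. Heat shock factor binds repeats of GAA and TTC. The full heat shock element was taken as 3 alternating blocks of GAA and TTC with NN between neighbours, starting with either block (both strands, the phases can overlap). Of 25 matched members 5 carried it in any window, against 61 of 11375 genes tested here (0.536%). By window it stood in 198 of 32851 (0.603%). The list was made of heat shock genes, so carrying the element is no more than a description. Hsph1 and Chordc1 are shown as members that carried it and fell, with the element in capitals and the window as above (RefSeq, GRCm38.p6).
Hsph1, chr5:149636266-149636565, minus strand: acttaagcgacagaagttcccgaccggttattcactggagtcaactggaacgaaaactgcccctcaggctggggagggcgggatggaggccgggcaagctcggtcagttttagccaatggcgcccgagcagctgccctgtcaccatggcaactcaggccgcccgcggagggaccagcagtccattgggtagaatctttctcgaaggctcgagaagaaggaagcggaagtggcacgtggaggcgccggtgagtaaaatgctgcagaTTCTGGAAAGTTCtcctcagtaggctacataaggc
Chordc1, chr9:18292017-18292316, plus strand: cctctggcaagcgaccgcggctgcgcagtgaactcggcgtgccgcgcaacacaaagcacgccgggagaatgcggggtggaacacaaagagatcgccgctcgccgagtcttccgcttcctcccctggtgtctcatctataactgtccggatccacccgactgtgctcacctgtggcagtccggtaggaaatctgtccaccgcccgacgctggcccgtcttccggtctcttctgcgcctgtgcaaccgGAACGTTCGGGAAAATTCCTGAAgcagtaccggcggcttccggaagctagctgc
Of the 17 matched members that were called, 4 carried the element.

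Hsph1, a co-chaperone that exchanges nucleotide on Hsp70, had 39.01, 44.1 and 57.7 CPM in benzene lungs, against 128, 123, 122, 102 and 105 CPM in air lungs and 31.2 CPM in air replicate 5. All benzene lungs were below the 5 air lungs (change -1.32 ± 0.096, limma adjusted p = 2.22e-09). Air replicate 5 lay below the benzene range, and with it the change was -1.01 and just missed the threshold (0.0505). Chordc1, a co-chaperone of Hsp90, averaged 49.9 ± 5.67 CPM in benzene and 69.2 ± 5.62 CPM in air lungs (-0.47 ± 0.084). Hspa8, the constitutive Hsp70, had 839, 947 and 1126 CPM in benzene lungs, against 1921, 1936, 2021, 1318 and 1364 CPM in air lungs and 1540.2 CPM in air replicate 5. The groups did not overlap, and air replicates 4 and 6 were the air lungs nearest to the benzene range (change -0.82 ± 0.12, limma adjusted p = 3.82e-05). Hsp90aa1, the inducible Hsp90, averaged 355 ± 53.5 CPM in benzene and 567 ± 90.3 CPM in air lungs (-0.67 ± 0.10), and Stip1, which links Hsp70 to Hsp90, 91.4 ± 4.14 CPM in benzene and 158 ± 7.89 CPM in air lungs (-0.78 ± 0.062). Dnaja1, an Hsp40, and Hspa1b, the inducible Hsp70 whose near-identical copy Hspa1a can share its reads, changed by -0.65 ± 0.064 and -0.60 ± 0.095. The mitochondrial chaperones, counted among the 31, were lower as well. Hspd1 averaged 134 ± 10.4 CPM in benzene and 179 ± 13.7 CPM in air lungs (-0.42 ± 0.072, limma adjusted p = 0.000398). Its partner Hspe1, a short gene, averaged 69.2 ± 13.5 CPM in benzene and 86.7 ± 4.996 CPM in air lungs and passed narrowly (limma adjusted p = 0.0321), with the call lost with air replicate 5 (0.117) and without any 1 of benzene replicates 1 (0.0807), 3 (0.05704), 5 (0.0777) and 6 (0.06703) and air replicates 1 (0.0893) and 2 (0.0737). Hspb6, Hspb7 and Cryab, small heat shock proteins rich in muscle, changed by -0.73, -0.72 and -0.40 on the log2 scale, and the muscle lists were lower in the same lungs. Hsf1, the heat shock factor itself, changed by -0.34. With the length trend taken out 22 of the 31 were lower, where 6.76% of all genes were called lower and 8.68% higher. The calls of Hsp90aa1 (limma adjusted p = 0.12004), Hspb6 (0.642), Cryab (0.119) and Hsf1 (0.214) were lost with air replicate 5.

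In the endoplasmic reticulum, 9 of 30 stress genes were lower and 0 higher (median change -0.15), or 5 and 0 with air replicate 5. Hspa5, the main chaperone there, averaged 437 ± 17.9 CPM in benzene and 556 ± 48.5 CPM in air lungs (-0.35 ± 0.068, limma adjusted p = 0.00159). Manf, a secreted folding factor, had 80.7, 86.9 and 109.9 CPM in benzene lungs, against 163, 169, 167, 146 and 134 CPM in air lungs and 223 CPM in air replicate 5. Its groups were apart (change -0.77 ± 0.086, limma adjusted p = 1.64e-06), and Creld2, a disulphide isomerase, was lower as well (change -0.55 ± 0.079). The call of Hspa5 (limma adjusted p = 0.464) was lost with air replicate 5.

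**Figure D5:**
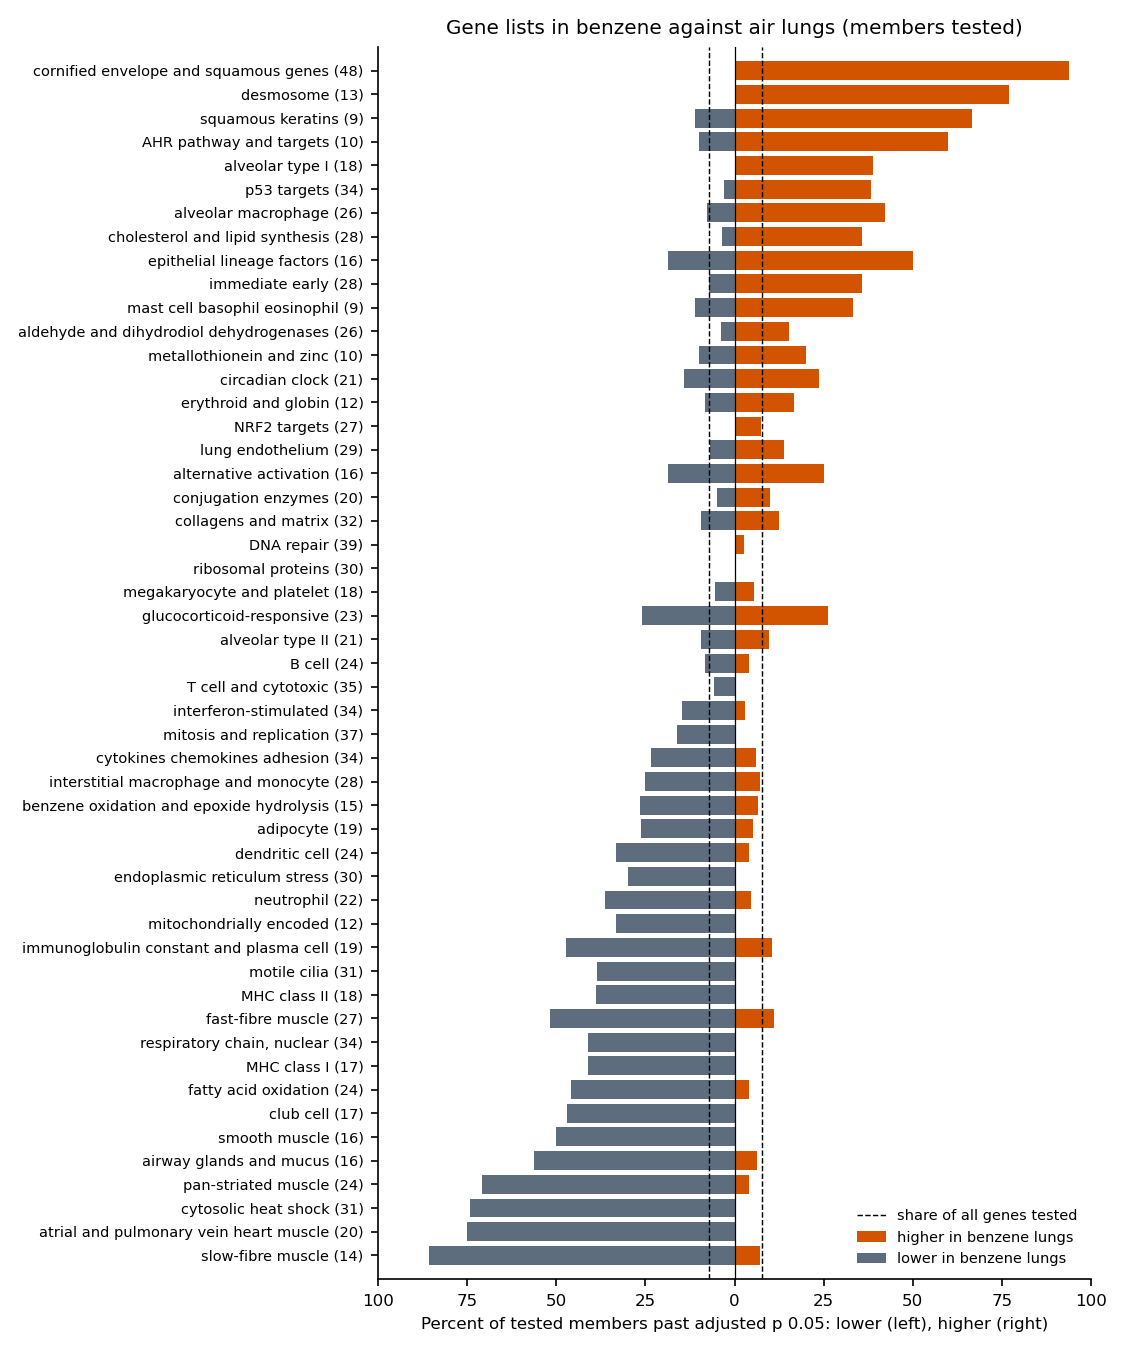
Percent of the tested members of each gene list with at least 9 tested genes that passed adjusted p 0.05 as higher in benzene lungs (right) or lower (left), with dashed lines at the shares over all 15754 genes (7.66% and 7.08%). The squamous lists lie far right, and the slow-fibre, heart muscle and heat shock lists far left.

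Of the immunoglobulin genes that passed most were lower, and most genes of B cells did not pass. Of 19 constant region and plasma cell genes 9 were lower and 2 higher (median change -0.44), or 8 lower and 1 higher with air replicate 5. They summed to 1058 to 1228 CPM in benzene lungs, 1793 to 2103 CPM in air lungs and 1769 CPM in air replicate 5. Ighm, the IgM heavy chain, had 186, 192 and 205 CPM in benzene lungs, against 525, 537, 516, 484 and 519 CPM in air lungs and 351 CPM in air replicate 5. Benzene lungs were below all 6 air lungs (change -1.40 ± 0.060, limma adjusted p = 3.47e-13). Igkc, the kappa light chain, averaged 223 ± 43.8 CPM in benzene and 601 ± 167 CPM in air lungs (-1.40 ± 0.16), Igha, the IgA heavy chain, 95.2 ± 10.6 CPM in benzene and 129 ± 7.77 CPM in air lungs (-0.44 ± 0.078), and Jchain, which joins IgA and IgM, 43.95 ± 6.33 CPM in benzene and 85.5 ± 6.599 CPM in air lungs (-0.95 ± 0.089). The IgG chains, whose similar sequences can share reads, split. Ighg2c had 0.589, 1.1001 and 1.94 CPM in benzene lungs, against 19.2, 21.1, 20.3, 15.01 and 16.3 CPM in air lungs, and Ighg2b averaged 5.89 ± 1.87 CPM in benzene and 23.9 ± 2.98 CPM in air lungs, both lower (-3.17 ± 0.18 and -1.89 ± 0.15). Ighg3 was higher, at 9.55 ± 2.13 CPM in benzene and 3.67 ± 0.569 CPM in air lungs (1.16 ± 0.15, limma adjusted p = 1.41e-05), with 5.697 CPM in air replicate 5. Prdm1, the plasma cell factor, was the other higher member (0.38). Over all annotated variable segments 48 were tested, with 21 lower and 3 higher. Among the lower ones, Ighv1-75, Ighv1-80, Ighv6-6, Igkv12-41 and Igkv8-28 reached 1 CPM in no benzene lung, so the filter fixed their direction. The call of Prdm1 (limma adjusted p = 0.0608) was lost with air replicate 5. Prdm1 missed the threshold without any 1 of benzene replicates 1 (0.0645), 2 (0.0524), 3 (0.0623) and 6 (0.0747) and air replicates 1 (0.0695), 2 (0.0521), 3 (0.0642) and 6 (0.0904).

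Of 24 B cell genes 2 were lower and 1 higher, with 5 lower without benzene replicates 2 and 4. These 2 and 1 are 8.33% and 4.17%, against 7.08% lower and 7.66% higher over all genes tested. Without benzene replicates 2 and 4, 12.2% of all genes were called lower. Ly6d, higher by 1.28, is also a squamous gene. Cd79a, of the B cell receptor, averaged 42.1 ± 3.43 CPM in benzene and 53.4 ± 4.56 CPM in air lungs (-0.34 ± 0.080, limma adjusted p = 0.00722), a call kept with air replicate 5 (0.0413) and lost with the length trend taken out (0.0577). Fcmr, the IgM receptor, passed at 0.0317 (limma adjusted p) and not with air replicate 5 (0.274), with the length trend taken out (0.135) or without any 1 of benzene replicates 1 (0.07296), 3 (0.0618) and 5 (0.0557) and air replicates 1 (0.0516), 2 (0.0945) and 3 (0.0757). Of 35 T cell and cytotoxic genes 2 were lower and 0 higher, Zap70 (-0.47) and Cd3e (-0.58 ± 0.17), or 0 with air replicate 5 and 6 without benzene replicates 2 and 4. These 2 are 5.71% of the list, below the share of all genes called lower. The Cd3e call (limma adjusted p = 0.0303) was lost without any 1 of benzene replicates 1 (0.064997) and 2 (0.0575) and air replicates 1 (0.102), 2 (0.0827) and 3 (0.0658). The calls of Zap70 (limma adjusted p = 0.374) and Cd3e (0.89999) were lost with air replicate 5. Zap70 missed the threshold without any 1 of benzene replicates 1 (0.0584) and 2 (0.0551) and air replicates 1 (0.0665) and 3 (0.0689).

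Some genes of antigen presentation by MHC class II were lower. Of 18 genes 7 were lower and 0 higher (median change -0.27), or 5 with air replicate 5. H2-Ab1, a class II beta chain, had 409, 450.5 and 538 CPM in benzene lungs, against 769.7, 812, 843, 652 and 624 CPM in air lungs and 691 CPM in air replicate 5. The groups stood clear of each other (change -0.68 ± 0.090, limma adjusted p = 1.86e-05). H2-Aa, H2-Eb1 and the invariant chain Cd74 averaged 396 ± 25.7, 323 ± 29.2 and 1069 ± 77.9 CPM in benzene lungs, against 549.6 ± 13.96, 491 ± 20.9 and 1657 ± 247 CPM in air lungs. Of 17 class I genes, some of them near copies, 7 were lower and 0 higher (median -0.20), and 0 passed with air replicate 5 (limma). Without benzene replicates 2 and 4, 11 were lower, where 12.2% of all genes were called lower. H2-K1 averaged 1164 ± 57.7 CPM in benzene and 1429.9 ± 44.7 CPM in air lungs (-0.30 ± 0.068, limma adjusted p = 0.00516 without air replicate 5 and 0.234 with it). Of 24 dendritic cell genes 8 were lower and 1 higher (Ly6d), or 4 and 1 with air replicate 5. Ccl22, a chemokine of mature dendritic cells that draws T cells, had 5.82, 7.59 and 9.29 CPM in benzene lungs, against 14.97, 15.4, 14.2, 14.2 and 9.78 CPM in air lungs and 18.4 CPM in air replicate 5. Benzene lungs were all lower (change -0.77 ± 0.14, limma adjusted p = 0.000562), and Ccl17, which shares its receptor, was lower with overlap (change -0.72 ± 0.16). Of 34 interferon-stimulated genes 1 was higher and 5 lower, or 1 and 1 with air replicate 5. Cxcl9 averaged 0.572 ± 0.296 CPM in benzene and 1.65 ± 0.525 CPM in air lungs (-0.75 ± 0.20), and Ifit2 24.8 ± 3.86 CPM in benzene and 16.2 ± 1.99 CPM in air lungs (0.58 ± 0.12). Of 34 cytokines, chemokines and adhesion genes 8 were lower and 2 higher, the epithelial interleukins Il1a (0.65 ± 0.17) and Il18 (0.68 ± 0.12), or 5 and 1 with air replicate 5. The call of Il1a (limma adjusted p = 0.0566) was lost with air replicate 5.

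Macrophage genes moved both ways. Of 26 genes of alveolar macrophages, which clear the air spaces, 11 were higher and 2 lower (median change 0.25), or 6 and 2 with air replicate 5. The lower members, Fabp4 and Krt19, are also expressed by fat cells and epithelium. The part of other cell types in the higher macrophage genes was not tested. The list summed to 1685 to 1868 CPM in benzene lungs and 1531 to 2046 CPM in air lungs, so the groups overlapped. Air replicate 5 had 2308 CPM. Ear2, an eosinophil-type ribonuclease, had 62.8, 68.8 and 89.01 CPM in benzene lungs, against 38.6, 41.6, 40.4, 35.8 and 34.5 CPM in air lungs and 51.6 CPM in air replicate 5. All benzene lungs were above the 5 air lungs (change 0.89 ± 0.091, limma adjusted p = 4.44e-07). Siglecf, the surface lectin of these cells, averaged 6.92 ± 1.42 CPM in benzene and 3.84 ± 0.7403 CPM in air lungs (0.71 ± 0.15), Mrc1, the mannose receptor, 51.1 ± 4.57 CPM in benzene and 38.003 ± 4.696 CPM in air lungs (0.42 ± 0.090), Chil3, a chitinase-like protein, 362 ± 22.5 CPM in benzene and 241 ± 15.5 CPM in air lungs (0.59 ± 0.066), and Il1rn, the interleukin 1 antagonist, 9.84 ± 1.47 CPM in benzene and 5.36 ± 1.14 CPM in air lungs (0.78 ± 0.15). The scavenger receptor Marco passed at 0.03096 (limma adjusted p), but not with air replicate 5 (0.138) or without any 1 of benzene replicates 2 (0.0643) and 4 (0.0532) and air replicates 1 (0.0691), 2 (0.0612) and 4 (0.07805). Arg1, an arginase of alternatively activated macrophages, had 7.09, 10.3 and 11.8 CPM in benzene lungs, against 1.096, 1.45, 1.75, 1.49 and 1.96 CPM in air lungs and 0 CPM in air replicate 5. Its groups were apart (change 2.10 ± 0.15, limma adjusted p = 2.04e-09). Of 16 genes of alternative activation 4 were higher and 3 lower, or 2 and 3 with air replicate 5. Retnla, usually grouped with Arg1, went the other way, at 67.3 ± 15.9 CPM in benzene and 109.5 ± 15.7 CPM in air lungs (-0.71 ± 0.13, limma adjusted p = 0.000663). The calls of Mrc1 (limma adjusted p = 0.293) and Il1rn (0.1796) were lost with air replicate 5.

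Of 28 genes of interstitial macrophages and monocytes 7 were lower (25%) and 2 higher (7.14%), against 7.08% and 7.66% over all genes tested. The higher ones were Lyve1 (0.43) and Nr4a1 (0.62). With air replicate 5 the counts were 3 and 1, where 2.3% of all genes were called lower and 3.4% higher. Without benzene replicates 2 and 4 they were 11 and 5, where 12.2% of all genes were called lower and as many higher. Cx3cr1, the fractalkine receptor, averaged 8.75 ± 1.08 CPM in benzene and 16.5 ± 4.15 CPM in air lungs (-0.82 ± 0.15, limma adjusted p = 0.000555), Ccr2, the receptor of inflammatory monocytes, 28.3 ± 2.58 CPM in benzene and 45.01 ± 5.94 CPM in air lungs (-0.65 ± 0.092, 4.51e-05), and C1qc, of complement, 42.6 ± 6.54 CPM in benzene and 56.2 ± 4.53 CPM in air lungs (-0.40 ± 0.096, 0.00712). With the length trend taken out 4 of the 28 were lower. Of 22 neutrophil genes 8 were lower and 1 higher, the formyl peptide receptor Fpr1 (0.53), with 5 lower with air replicate 5 and 12 lower without benzene replicates 2 and 4. Ltf, lactoferrin of neutrophil granules and of airway glands, had 89.9, 101 and 116 CPM in benzene lungs, against 249, 254, 219, 177 and 203 CPM in air lungs and 243 CPM in air replicate 5. The groups did not overlap (change -1.07 ± 0.092, limma adjusted p = 3.1e-08). Lrg1, a secreted glycoprotein, Cxcr2, the chemokine receptor of neutrophils, and Retnlg, a resistin-like protein, changed by -0.66 ± 0.072, -0.56 ± 0.13 and -0.69 ± 0.14. S100a9, a short and abundant neutrophil gene, passed at 0.01399 (limma adjusted p) and not with air replicate 5 (0.0519), with the length trend taken out (0.0613) or without air replicate 1 (0.0544). The call of Lyve1 (limma adjusted p = 0.216) was lost with air replicate 5.

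Most airway lining genes that passed were lower. Of 16 genes of airway glands and mucus 9 were lower and 1 higher (median change -0.62), of 17 club cell genes 8 were lower and 0 higher (-0.29), and of 31 genes of motile cilia 12 were lower and 0 higher (-0.28). With air replicate 5 the lower counts were 6, 5 and 3. Bpifb1, a secreted defence protein of glands and goblet cells, had 139, 159 and 181 CPM in benzene lungs, against 406, 393, 372, 292 and 310.05 CPM in air lungs and 442 CPM in air replicate 5. The groups did not overlap (change -1.14 ± 0.092, limma adjusted p = 1.13e-08). Muc5b, the main airway mucin, averaged 32.7 ± 3.85 CPM in benzene and 64.6 ± 11.8 CPM in air lungs (-0.95 ± 0.11), and Reg3g, an antibacterial lectin, 66.1 ± 5.94 CPM in benzene and 125 ± 8.86 CPM in air lungs (-0.91 ± 0.074). Lyz1, lysozyme of glands and Paneth cells, was the higher member, at 806 ± 67.5 CPM in benzene and 452 ± 58.1 CPM in air lungs (0.84 ± 0.086), although its near copy Lyz2 can share its reads. Scgb3a1 and Scgb3a2, secretoglobins of airway cells, were lower with overlap between groups (changes -0.82 ± 0.13 and -0.79 ± 0.16). Scgb1a1, the defining club cell gene, did not pass, at 49297 ± 7799 CPM in benzene and 59738 ± 3948 CPM in air lungs (limma adjusted p = 0.332), although it passed as lower by DESeq2 (0.0316), limma-voom (0.0356), robust moderation (0.0438) and without benzene replicates 2 and 4 (0.0245). Foxj1, the master factor of ciliated cells, did not pass either (-0.29 ± 0.11, 0.0817), while Dynlrb2, a dynein light chain, averaged 52.3 ± 9.57 CPM in benzene and 74.6 ± 14.9 CPM in air lungs (-0.50 ± 0.13, limma adjusted p = 0.0115).

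The defining alveolar and vascular genes were high in every lung. Sftpc, the surfactant protein of type II cells, averaged 23562 ± 4218 CPM in benzene and 29984 ± 4471 CPM in air lungs, Ager, of type I cells, 2398 ± 332 CPM in benzene and 2572 ± 156 CPM in air lungs, and Pecam1, of endothelium, 663 ± 50.6 CPM in benzene and 723 ± 67.1 CPM in air lungs, and none of these 3 passed (limma adjusted p = 0.178, 0.4801 and 0.297). Sftpc passed as lower by DESeq2 (0.0312), by limma-voom (0.0431) and without benzene replicates 2 and 4 (0.0134), and Ager without these 2 lungs (0.0286). Of 18 type I genes 7 were higher and 0 lower (median change 0.21), or 2 with air replicate 5. Emp2, a membrane protein of type I cells, averaged 1086 ± 65.6 CPM in benzene and 853 ± 46.4 CPM in air lungs (0.35 ± 0.070), and Sema3e, a guidance signal, 95.8 ± 5.67 CPM in benzene and 69.2 ± 9.06 CPM in air lungs (0.47 ± 0.084). Of 21 type II genes 2 were higher, Fabp5 (1.61 ± 0.075) and Etv5 (0.20), and 2 lower, Nkx2-1 and Muc1 (-0.41). Each count is 9.52% of the list, against 7.66% higher and 7.08% lower over all genes tested. With air replicate 5 Fabp5 alone was called. Fabp5, a fatty acid carrier, is also strong in squamous epithelium. Of 29 endothelial genes 4 were higher (13.8%) and 2 lower (6.9%), or 2 and 0 with air replicate 5. Ednrb, the endothelin receptor of alveolar capillaries, averaged 101 ± 5.25 CPM in benzene and 78.6 ± 4.12 CPM in air lungs (0.36 ± 0.065), and Nos3, the endothelial nitric oxide synthase, 19.4 ± 2.93 CPM in benzene and 28.1 ± 2.15 CPM in air lungs (-0.53 ± 0.10). Of 16 smooth muscle genes 8 were lower and 0 higher (median -0.37), or 5 and 0 with air replicate 5. Acta2 and Tagln, contractile proteins of vessels and airways, averaged 326 ± 21.02 and 339 ± 59.9 CPM in benzene lungs, against 501 ± 61.3 and 519 ± 61.4 CPM in air lungs (-0.61 ± 0.079 and -0.62 ± 0.10). Of 32 matrix genes 4 were higher (12.5%) and 3 lower (9.4%), or 2 and 1 with air replicate 5 (median change 0.02). Col4a3, of the alveolar basement membrane, and Eln, elastin, changed by 0.60 ± 0.10 and -0.83 ± 0.086. The calls of Emp2 (limma adjusted p = 0.0559), Etv5 (0.305), Nkx2-1 (0.207), Muc1 (0.0711), Nos3 (0.208) and Eln (0.0637) were lost with air replicate 5. Etv5 missed the threshold without any 1 of benzene replicates 1 (0.0876), 2 (0.0634), 3 (0.0881), 5 (0.0837) and 6 (0.0539) and air replicates 1 (0.111), 3 (0.0986), 4 (0.0544) and 6 (0.0558).

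Energy metabolism genes were lower in part, and many of them are short transcripts, which the length gradient above touches. Of 34 nuclear genes of the respiratory chain 14 were lower and 0 higher (median change -0.21). The lower count was 4 with air replicate 5, 11 with the length trend taken out and 27 without benzene replicates 2 and 4. In the last setting 12.2% of all genes were called lower. Uqcrc1, of complex III, averaged 167 ± 10.5 CPM in benzene and 225 ± 13.4 CPM in air lungs (-0.43 ± 0.065, limma adjusted p = 0.000108). Of 12 mitochondrially encoded genes 4 were lower (mt-Nd1, mt-Nd2, mt-Nd4 and mt-Rnr1) and 0 higher, but 0 with air replicate 5 and 1 with the length trend taken out. All mitochondrially encoded genes of the lung table made up 1.04% to 1.70% of reads in benzene lungs, 1.42% to 1.84% in air lungs and 0.658% in air replicate 5. Their share did not differ between benzene and air lungs past the threshold (exact two-sided permutation p = 0.0714, n = 6 and 5). mt-Nd1 passed at 0.00135 (limma adjusted p), 0.588 with air replicate 5 and 0.0538 with the length trend taken out, which left mt-Rnr1 as the called gene. Of 30 ribosomal protein genes 0 passed, or 17 lower without benzene replicates 2 and 4 (limma and Benjamini-Hochberg throughout). The part of transcript length in these counts was not tested beyond these alternatives. The calls of mt-Nd2 (limma adjusted p = 0.124), mt-Nd4 (0.975) and mt-Rnr1 (0.0619) were lost with air replicate 5. mt-Nd2 missed the threshold without any 1 of air replicates 2 (0.0684) and 3 (0.06700). mt-Nd4 missed the threshold without any 1 of air replicates 2 (0.0762) and 3 (0.0604).

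Some genes of cholesterol and lipid synthesis were higher in benzene lungs when air replicate 5 was left out. Of 28 genes of cholesterol and lipid synthesis 10 were higher and 1 lower (median change 0.19), against 0 and 1 with air replicate 5. Idi1, of the isoprenoid pathway, had 13.6, 14.9 and 21.9 CPM in benzene lungs, against 10.7, 11.3, 11.1, 12.5 and 11.1 CPM in air lungs and 2.85 CPM in air replicate 5. The benzene lungs lay above the 5 air lungs, and air replicate 5 lay outside them (change 0.45 ± 0.12, limma adjusted p = 0.0121, or 0.121 with air replicate 5). Thrsp, a regulator of fat synthesis, averaged 26.7 ± 4.91 CPM in benzene and 60.3 ± 18.3 CPM in air lungs (-1.12 ± 0.15) and was the lower member. Of 24 fatty acid oxidation genes 11 were lower and 1 higher, the fatty acid transporter Cd36 (0.38), or 5 and 1 with air replicate 5. Fabp3, the fatty acid carrier of heart and oxidative muscle, averaged 48.5 ± 9.04 CPM in benzene and 114 ± 15.1 CPM in air lungs (-1.23 ± 0.12). Of 19 fat cell genes 5 were lower and 1 higher, or 4 and 0 with air replicate 5. Lep, leptin, had 0.236, 0.407 and 0.547 CPM in benzene lungs, against 1.22, 1.34, 4.47, 1.91 and 2.57 CPM in air lungs and 1.499 CPM in air replicate 5. It was low in all lungs and reached 1 CPM in no benzene lung, so the filter fixed its direction and the change of -1.16 ± 0.22 is a description, while Retn, resistin, Fabp4, a fatty acid carrier, and Lipe, a lipase, changed by -0.73, -0.60 and -0.39.

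Genes that respond to handling, hormones and time of day also differed. Of 28 immediate early genes 10 were higher and 2 lower (Jund and Nr4a3, median change 0.21), or 4 and 2 with air replicate 5. Egr1 averaged 71.6 ± 3.83 CPM in benzene and 52.9 ± 4.48 CPM in air lungs (0.43 ± 0.073), and Nr4a1, an orphan nuclear receptor, 72.7 ± 6.31 CPM in benzene and 47.1 ± 6.91 CPM in air lungs (0.62 ± 0.091). Fosb overlapped between groups (0.77 ± 0.20, limma adjusted p = 0.0135). Of 21 clock genes 5 were higher and 3 lower, or 2 and 1 with air replicate 5. Per1, of the clock's repressive limb, had 116, 127 and 137 CPM in benzene lungs, against 89.5, 91.4, 98.3, 105 and 104 CPM in air lungs and 174 CPM in air replicate 5, with benzene lungs all above the 5 air lungs and below air replicate 5 (change 0.38 ± 0.071, limma adjusted p = 0.000952). Of 23 glucocorticoid-responsive genes 6 were higher and 6 lower, or 2 and 1 with air replicate 5, with Klf9 at 0.78 ± 0.16 and Zbtb16 at -0.63 ± 0.15. Of 10 metallothionein and zinc genes 2 were higher, Mt4, given with the squamous genes, and the zinc importer Slc39a8 (0.36), and 1 lower, Mt1 (-0.50). Collection times were not used here, and their part was not tested. The calls of Egr1 (limma adjusted p = 0.113), Fosb (0.142), Per1 (0.318), Klf9 (0.161), Zbtb16 (0.636) and Mt1 (0.0965) were lost with air replicate 5.

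Few genes of neck organs could be tested. Of 12 listed thyroid and parathyroid genes 8 were absent from the lung table, of 15 thymus genes 9 and of 16 cartilage genes 10. Of 4 tested thyroid and parathyroid genes and 6 thymus genes 0 passed (limma, Benjamini-Hochberg), and of 4 cartilage genes 1 was lower, Chad (-0.67). The thyroid list summed to 7.26 to 10.4 CPM in benzene lungs and 10.4 to 11.8 CPM in air lungs, and the cartilage list to 61.7 to 69.8 CPM in benzene lungs and 80.5 to 88.99 CPM in air lungs. The part of tissue beside the lung in the squamous and muscle results was not tested. Of 31 genes set out individually as benzene, damage or tissue genes, 29 were tested and 10 called, and the 19 others changed by -0.35 to 0.17. The call of Chad (limma adjusted p = 0.109) was lost with air replicate 5.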

How the data were processed

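Lung RNA was sequenced as poly-A libraries, 6 per group. The deposited values, headed CPM, are a normalized signal made by the authors. Per the submitters' processing notes fastp 0.20.0, STAR and edgeR 3.10 were used with GRCm38. No source used here names the read counter, the annotation or the gene filter. Dividing each library's values by 1 step gave whole reads (within 0.01) for 100% of values, and the columns do not sum to 1e+06. Genes with at least 1 CPM in at least 5 of the 11 libraries were fitted with limma-trend (limma 3.58.1, R 4.3.3) on log2(CPM + 1), with Benjamini-Hochberg adjusted p under 0.05 as the call. Changes on that scale understate those of low genes. Recovered reads were also tested with edgeR 4.0.16 and DESeq2 1.42.0. In all 25 alternatives were fitted, 2 of them chosen after seeing the data (a length trend removed from each library, and benzene replicates 2 and 4 left out together). Coordinates are those of GENCODE M21, and promoters those of RefSeq (GRCm38.p6). Of 15971 genes 15950 matched GENCODE. Liver libraries were not used.

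The genes compared, the 56 lists and the tests were chosen with earlier results of these data known, so a pattern seen before has no independent support here. Named genes are the 12 highest and 12 lowest called changes, up to 6 called members of each list by size, 31 genes taken whatever their result, and the 6 per direction that moved most with air replicate 5. Of 170 genes examined in detail, 154 came from that rule and 16 were picked after their values were seen, as were the list members given by change alone outside it. Replicate numbers were not used to pair the samples in the main fit. Lungs with the same number correlated at -0.386 to 0.0234 in their deviations from the group means, with no reference set to judge these values. With the number as a block 1197 genes were called, against 2321 in the main fit. Whether lungs of the same number share a batch was not tested. Calls of close gene copies may rest on shared reads.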

Additional observations from a re-analysis of the deposited data

Results flagged for a closer look

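In 346 groups of lungs the highest or lowest lung was compared with its nearest fellow by Dixon's criterion, which flags about 1 group in 20 by chance, and 17 stood apart. Air replicate 5 was 1 of 6 air lungs and stood apart with 894 genes without a read and with 0.658% of reads from mitochondrially encoded genes. The library had been left out for its genes without a read, so that flag was fixed in advance and is a description.

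Among squamous genes, Krt13 was low in air replicate 6 (115 CPM) and Sprr3 in air replicate 3 (5.73 CPM). In muscle genes, Myl2 was high in benzene replicate 1 (0.306 CPM), Tnnt1 low in benzene replicate 6 (1.84 CPM), Cacng1 low in benzene replicate 1 (3.78 CPM) and Vgll2 high in benzene replicate 4 (0.101 CPM, from 1 read). Of the metabolic genes, benzene replicate 6 stood apart for Cyp2b10 (336 CPM) and Idi1 (21.9 CPM), and benzene replicate 1 for Gstm1 (551 CPM). Jchain was high in benzene replicate 4 (56.4 CPM), Xcr1 stood apart in air replicate 3 (6.89 CPM), Ccl22 in air replicate 6 (9.78 CPM) and Ifit2 in air replicate 1 (12.8 CPM). Nkx2-1 was high in benzene replicate 6 (195 CPM), and Nfil3 stood apart in benzene replicate 5 (6.47 CPM).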

How the results depend on the processing

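The count of genes called was 2321, with 1206 higher and 1115 lower. Adding air replicate 5 gave 897 (535 and 362), or 891 (531 and 360) with 1 CPM asked of 6 of 12 libraries. Leaving out benzene replicates 2 and 4 together gave 3850 (1925 and 1925). With the replicate number as a block the count was 1197 (642 and 555), 1192 of them also called without it. Lungs with the same number correlated at -0.386, -0.170, -0.209, 0.0234 and -0.295 in their deviations from the group means. No reference was set for these values, so they cannot decide what lungs of the same number share, which was not tested. Leaving out 1 library gave 1636 to 2969 genes, the lowest without air replicate 2 and the highest without benzene replicate 4. The cause of these differences was not tested. The other settings stayed within 1.5 times, with edgeR at 2273, DESeq2 at 2642 and the length trend taken out at 2430. The mitochondrially encoded share of reads, differed by -0.287 percentage points (exact permutation p = 0.0714), and by -0.359 (without benzene replicate 6, p = 0.0159) to -0.227 (without benzene replicate 4) with 1 lung left out. Genes without a read differed by -19.3 on average, or -161.67 with air replicate 5. With air replicate 5 the log2 changes of Cyp2f2 (0.0067), Gstt1 (0.148) and mt-Nd4 (0.0306) turned positive under both filters. Over 170 genes and 25 settings, 4018 of 4248 values kept their direction and side of the threshold, 208 lost the call, 16 gained it and 6 turned.

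Genes near 1 CPM rest on few reads in each library, so their values carry a large counting error. A call that misses the threshold does not show that a gene was alike in benzene and air lungs. Length gradients between libraries touch short transcripts most, and their part was not tested beyond the alternative that removes them.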
